A study of Mus musculus with 11 samples.

Results

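The genes of the proteasome were described in mammary gland tissue of wild-type mice at parturition (L1), the stage at which milk secretion begins. Members were all genes with a single symbol in the authors' deposited expression table that starts with Psm, goes on with a letter from a to g and then a digit. This rule found 46 of the 14847 named genes. The mice were of the mixed strain background 129SV::FVB/N::C57BL/6, the gland was taken as whole tissue after removal of the lymph nodes, and poly(A) RNA was sequenced as 1 library. Of the 11 samples that the labels describe, only this one entered the results. With 1 library there is no replicate, so no value below has an error, no test was run and no order of 2 genes has been set against biological variation. Levels are FPKM (fragment counts corrected for the length of the transcript and the size of the library). Being scaled for length, they can be set side by side between genes of 1 library. Errors in assembled length and other bias between genes were not assessed, so ratios between genes are approximate. The sequencing depth is unknown.

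The proteasome is the large protease that degrades ubiquitin-tagged proteins in the cytosol and nucleus. Its barrel, the 20S core, is built of outer rings of alpha subunits, which gate the entrance, and inner rings of beta subunits, some of which carry the cutting sites. The 19S regulatory particle caps the barrel, recognises ubiquitin, removes it, unfolds the substrate with a ring of ATPases and threads it inside. In cells exposed to interferon, and in immune cells, the cutting subunits are replaced by the immunoproteasome subunits, whose products fit MHC class I molecules.

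The members, which include Psmc3ip by its symbol alone, lay well above the typical named gene of the gland. Their median was 33.4 FPKM with quartiles of 14.3 and 53.6, which was 8.55 times the median of all named genes, 3.90 FPKM. Of the 46 members, 38 reached 10 FPKM (82.6%), where 27.9% of all named genes did, and 15 reached 50 FPKM (32.6%), where 5.81% of all named genes did. All but 2 members, Psmg1 and Psma8, stood above the median named gene. The levels ran from 137.9 FPKM for Psma7 down to 0 for Psma8, the only member listed at 0. In sum the members made up 0.166% of the FPKM of named genes, or 0.740% once the 51 genes at 1000 FPKM or more, milk protein genes among them, were set aside.

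**Figure D1:**
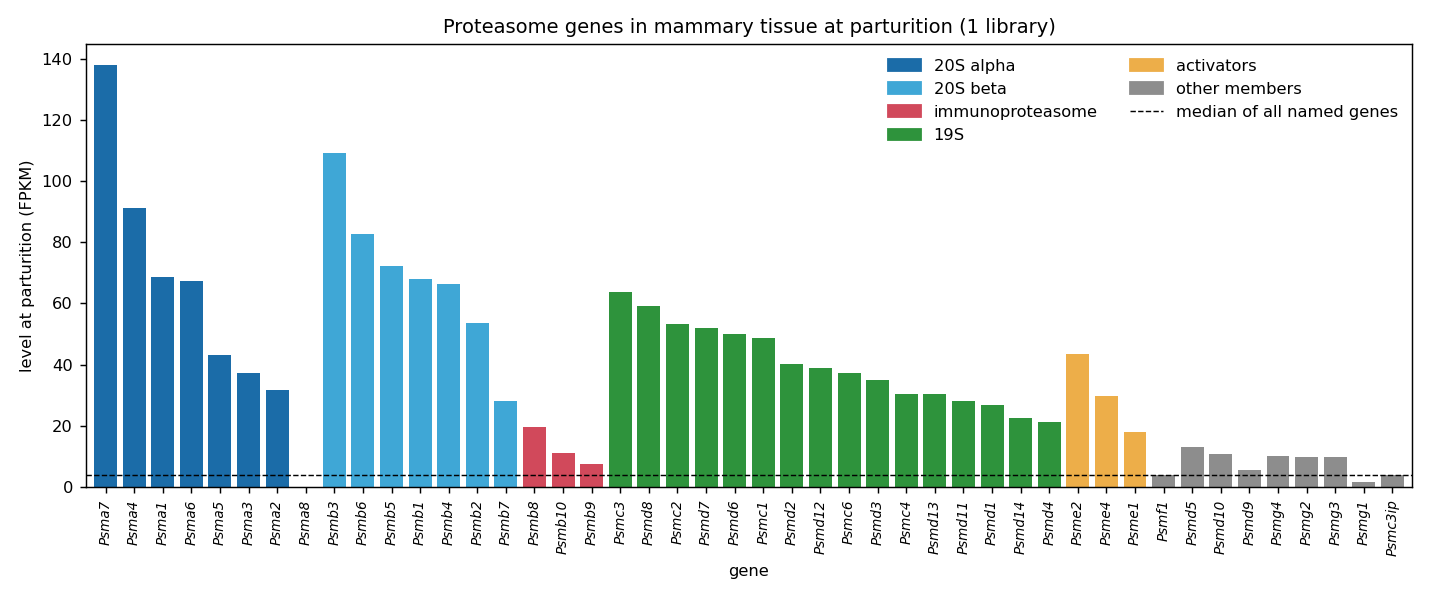
Level of each of the 46 members at parturition, in FPKM, 1 library. Psmc3ip is included because its symbol meets the rule. Bars are coloured by part of the proteasome, and the dashed line is the median of all named genes. The tallest bar is Psma7 at 137.9 FPKM, the 20S bars mostly exceed the 19S bars, and the 3 immunoproteasome bars lie below every bar of the 20S alpha and beta groups other than that of Psma8.

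The 20S core had the highest levels of any part. Its 14 constitutive genes had a median of 67.7 FPKM, ran from 28.0 to 137.9 FPKM and summed to 958 FPKM, more than the sum of all other members. Each of the 14 reached 10 FPKM and 10 of them reached 50 FPKM, where 27.9% and 5.81% of all named genes did. Alpha and beta genes stood at nearly the same median, 67.4 FPKM over 7 alpha genes and 68.0 FPKM over 7 beta genes.

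Among the alpha genes, which encode the outer rings, Psma7 stood apart at 137.9 FPKM. Psma4 followed at 91.3 FPKM, and Psma1 at 68.6 and Psma6 at 67.4 FPKM lay close together. Psma5 at 43.1, Psma3 at 37.3 and Psma2 at 31.7 FPKM formed the lower end, so that Psma7 lay 4.36 times above Psma2. Each of these alpha subunits takes 1 place in every alpha ring, yet their transcript levels were unequal by this factor. Psma8, which encodes a form of the Psma7 subunit known from the testis, was listed at 0.

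Among the beta genes the subunits without a cutting site were Psmb3 at 109.1 FPKM, Psmb1 at 68.0, Psmb4 at 66.4 and Psmb2 at 53.7. In mammals these subunits shape the inner rings. The 3 constitutive cutting subunits were Psmb6 at 82.7 FPKM (the caspase-like site), Psmb5 at 72.4 (the chymotrypsin-like site) and Psmb7 at 28.0 (the trypsin-like site). Psmb7 was the lowest gene of the whole 20S core, and Psmb6 stood 2.96 times above it. The gene table of GRCm38.p6 names pseudogenes of Psma5, Psmb5, Psmb6 and Psmb7. No source used here says how reads shared with such copies were counted, so these 4 levels are less certain. Copies under other symbols were not searched for, so the levels of other members may be affected as well.

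The immunoproteasome genes were expressed, but below the subunits they replace in each of the 3 pairs. Psmb8 stood at 19.5 FPKM, Psmb10 at 11.1 and Psmb9 at 7.67, with a median of 11.1 FPKM against 67.7 for the 14 constitutive 20S genes, 6.07 times lower. Every one of the 3 lay below Psmb7, the lowest constitutive 20S gene. They were nevertheless above the median named gene, at percentiles 84.6, 74.5 and 66.2.

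Pair by pair, the gap was unequal. Psmb5 stood 3.72 times above Psmb8, which takes its place, a log2 ratio of Psmb8 to Psmb5 of -1.84 after adding a pseudocount of 1 FPKM to both. Psmb6 stood 10.8 times above Psmb9, a log2 ratio of Psmb9 to Psmb6 of -3.27. Psmb7 stood 2.51 times above Psmb10, a log2 ratio of Psmb10 to Psmb7 of -1.25. The narrow gap of the last pair came with a low constitutive gene: Psmb10 itself was lower than Psmb8. Summed over the 3 pairs, immunoproteasome genes gave 38.3 FPKM and constitutive cutting subunits 183.1 FPKM. The former thus held 17.3% of the total, from 8.49% in the pair of Psmb9 and Psmb6 to 28.5% in that of Psmb10 and Psmb7. Psmb5, Psmb6 and Psmb7 all have pseudogenes that carry their symbols, whereas none carries that of Psmb8, Psmb9 or Psmb10. Copies under other symbols were not searched for, and the reads were not examined. Shared reads may therefore make either side of each ratio and share uncertain.

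**Figure D2:**
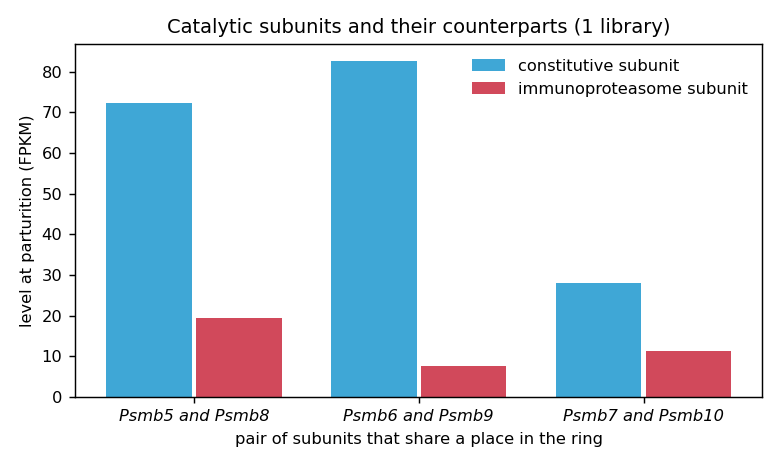
Levels in FPKM of the 3 constitutive cutting subunits (blue) and of the immunoproteasome subunits that replace them (red), 1 library. The red bar is the lower of each pair, with the widest gap between Psmb6 at 82.7 and Psmb9 at 7.67 FPKM and the narrowest between Psmb7 at 28.0 and Psmb10 at 11.1 FPKM.

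The tissue was whole gland, so these transcripts pool all its cells, and fewer cells of a type cannot be told apart from less RNA per cell. The markers of luminal epithelium stood at a median of 211 FPKM over 10 of 10 genes, led by Csn2 at 170861 FPKM, Wap at 63664 and Lalba at 8034. Leukocyte markers were measured for 18 of 20 genes, with a median of 1.19 FPKM and a summed level of 49.6 FPKM. Cd52, found on most lymphocytes and on some cells of the reproductive tract, was highest at 13.05 FPKM, followed by Fcer1g at 8.07 and Tyrobp at 6.31, both signalling adaptors of myeloid cells. The pan-leukocyte gene Ptprc stood at 2.47 FPKM and the T cell gene Cd3e at 0.55. Psmb9, the lowest immunoproteasome gene, lay above 16 of these 18 markers. Other cells of the gland were also represented, with medians of 64.8 FPKM over 4 adipocyte markers, 75.03 over 3 fibroblast markers and 14.3 over 3 endothelial markers. What each cell type contributed to the immunoproteasome levels was not tested.

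The immunoproteasome genes belong to the pathway that supplies peptides to MHC class I, and the other genes of that pathway spread over a wide range. The list of 12 genes had 10 measured members with a median of 42.9 FPKM, from 1.14 to 395 FPKM. Of these 10, 7 reached 10 FPKM, where 27.9% of all named genes did. The MHC class I chains led together with the chaperones of the endoplasmic reticulum: B2m, the light chain, stood at 308 FPKM, the heavy chain genes H2-K1 at 153 and H2-D1 at 139, Calr at 395 and Canx at 64.6 FPKM. Reads of H2-K1 and H2-D1 can be shared with other class I genes, so both values are uncertain. The peptide transporter of the endoplasmic reticulum is a dimer, and its genes stood at 21.2 FPKM for Tap2 and 5.44 FPKM for Tap1, a 3.89-fold gap. The trimming peptidase gene Erap1 was at 12.3 FPKM, Tapbpl at 3.51, and Nlrc5, a transcriptional activator of MHC class I genes, at 1.14.

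On chromosome 17 the protein-coding genes Psmb9, Tap1, Psmb8 and Tap2 follow one another directly in the GRCm38.p6 gene order. Their levels along this order were 7.67, 5.44, 19.5 and 21.2 FPKM. The pair of Psmb9 and Tap1 was thus low and the pair of Psmb8 and Tap2 higher, within a stretch of 4 neighbouring genes. The interferon list of 16 genes had 14 measured members and a median of 7.26 FPKM. Iigp1 was the highest at 19.3 FPKM and Mx1 the lowest at 0.31, with Irf1, a transcription factor of the response, at 11.6. The 3 immunoproteasome genes fell within the range of that list, apart from Psmb8, which at 19.5 FPKM lay just above its highest gene. In sum over its 3 loci, however, Iigp1 stood at 23.1 FPKM, above Psmb8.

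**Figure D3:**
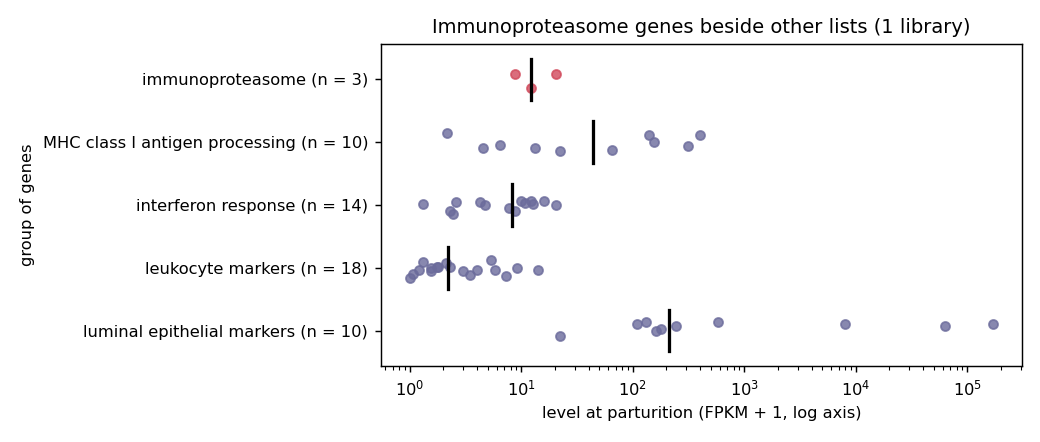
Level of each measured gene (points, FPKM plus 1 on a log axis) and the median (vertical bar) for the immunoproteasome and 4 other lists, 1 library. The 3 immunoproteasome genes lie between the medians of the leukocyte markers (1.19 FPKM) and of the luminal markers (211 FPKM) and near the interferon list (median 7.26 FPKM).

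The Psm genes of the 19S regulatory particle stood below those of the 20S core by median. The 16 measured had a median of 38.1 FPKM, 1.78 times below the median of the 20S core, and ran from 21.4 to 63.7 FPKM, a 2.98-fold range. All 16 lay within 2 times of their median, while 11 of 14 genes of the 20S core did so, the exceptions being Psma7, Psma2 and Psmb7. With Shfm1 and Adrm1, 19S subunit genes with other symbols that are described below, the particle ran from 21.4 to 123 FPKM, a 5.75-fold range against 4.93-fold in the 20S core, with a median of 39.6 FPKM over 18 genes. None of the 16 Psm genes of the 19S particle reached the median of the 20S core, and 9 of the 14 genes of the 20S core lay above Psmc3, the highest of those 16. At the other end 3 genes, Psmd1, Psmd14 and Psmd4, lay below Psmb7. The 16 Psm genes of the 19S particle all reached 10 FPKM and 5 of them reached 50 FPKM, where 27.9% and 5.81% of all named genes did. Across the 30 Psm genes of the 20S core and 19S particle, only Psma7 and Psmb3 exceeded 100 FPKM, and Psmd4 was the lowest at 21.4 FPKM.

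The ATPases of the 19S base, the motor that unfolds substrates, had a median of 48.7 FPKM over 5 of 6 genes. Psmc3 stood at 63.7 FPKM, Psmc2 at 53.2, Psmc1 at 48.7, Psmc6 at 37.2 and Psmc4 at 30.4, while Psmc5 was not analysed here. The scaffold genes of the base, Psmd2 and Psmd1, were at 40.3 and 26.8 FPKM. Psmd4, a receptor for ubiquitin chains, was the lowest 19S gene at 21.4 FPKM.

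The lid, which sits beside the base and removes the ubiquitin chain, had a median of 37.0 FPKM over its 8 Psm genes. Shfm1, a 19S subunit gene with another symbol that stood at 123 FPKM, is not counted among these 8. Psmd8 at 59.3 FPKM, Psmd7 at 52.0 and Psmd6 at 50.1 were the highest of the 8. Psmd12 stood at 38.9 FPKM, Psmd3 at 35.1, Psmd13 at 30.3 and Psmd11 at 28.2. Psmd14, the metalloprotease of the lid that cuts off the chain, was the lowest of the 8 at 22.4 FPKM. Psmd4 and Psmd14 thus had the lowest levels of the 16 Psm genes of the particle.

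Activators and the inhibitor of the 20S core differed among themselves. Psme1 and Psme2 encode the alpha and beta chains of the PA28 ring, an interferon-responsive cap that opens the core without ATP. Psme2 stood at 43.6 FPKM and Psme1 at 18.0 FPKM, a 2.42-fold gap between partners of 1 ring. Psme2 has a close copy, Psme2b, in the gene table, so its level is less certain. Between Psme1 and Psme2 the gene order places 1 protein-coding gene, Emc9. Psme4, which encodes the large single-chain activator PA200, was at 29.9 FPKM. Both PA28 genes lay above Psmb9 and Psmb10, and Psme1 lay just below Psmb8. Psmf1, which encodes the inhibitor PI31, stood at 3.93 FPKM, close to the median named gene. Psme3, the nuclear relative of PA28, Psme2b, and Psmb11, a cutting subunit known from the thymus, were not analysed here.

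Chaperones that assemble the proteasome were lower by median than the subunits they assemble. The 4 chaperones of the 20S core had a median of 9.86 FPKM, 6.86 times below the median of the core. The 3 chaperones of the 19S base had a median of 10.7 FPKM, 3.54 times below the median of the 19S Psm genes. Those of the 19S base were Psmd5 at 13.01 FPKM, Psmd10 at 10.7 (known as the oncoprotein gankyrin) and Psmd9 at 5.57. For the alpha ring, Psmg4, Psmg2 and Psmg3 lay almost together at 10.03, 9.92 and 9.80 FPKM. Their partner Psmg1 stood at 1.66 FPKM, 6.05 times below Psmg4, although PSMG1 and PSMG2 proteins work as a dimer. Psmg2 had a further locus at 2.64 FPKM, which would raise it to 12.6 FPKM in sum. Psmc3ip, whose symbol meets the rule but whose product acts in meiotic recombination, was at 3.97 FPKM.

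A maturation factor outside the Psm symbols had a level like that of a subunit. Pomp, which is built into the beta ring during assembly and degraded by the finished core, stood at 58.5 FPKM, 35.3 times above Psmg1. The 19S subunit genes that carry other symbols were Shfm1 at 123 FPKM, which exceeded the highest Psm gene of the 19S particle, and Adrm1, a ubiquitin receptor, at 47.03 FPKM. Over the list of other subunits and partners, 22 of 25 genes were measured, with a median of 26.9 FPKM. Of these 22, 17 reached 10 FPKM, where 27.9% of all named genes did.

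Within that list, related genes often stood apart. Of the deubiquitinases that dock on the 19S particle, Uchl5 was at 38.2 FPKM and Usp14 at 7.49 FPKM, 5.11 times lower. Among shuttle factors that carry ubiquitinated proteins to the proteasome, Rad23b stood at 40.1 FPKM, and Ubqln1 at 51.9 exceeded Ubqln4 at 20.4 and Ubqln2 at 6.11. The ubiquitin-activating enzyme Uba1 stood at 40.5 FPKM, 10.2 times above Uba6 at 3.96. The segregase gene Vcp, which pulls proteins out of membranes and complexes, reached 124 FPKM, while its cofactors Ufd1l and Nploc4 were at 16.7 and 13.1.

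Ubiquitin itself was represented by the ribosomal fusion gene Rps27a at 754 FPKM, which has processed copies in the genome that can share reads. The ligases Huwe1, Ube3a and Ube3c stood at 13.3, 11.4 and 8.95 FPKM. Nfe2l1, which encodes the transcription factor that raises proteasome genes when the proteasome is impaired, was at 16 FPKM, and its relative Nfe2l2 at 33.3 FPKM.

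Spreads of subunit levels within the 20S core and the 19S particle were set beside those of other complexes. The COP9 signalosome and the translation factor eIF3 share their architecture with the 19S lid, and the CCT chaperonin is, like the 20S core, a double-ring barrel. The SD of log2 FPKM over the genes of a complex was 0.66 for the 20S core (n = 14 genes). For the 19S particle it was 0.49 over the 16 Psm genes and 0.61 with Adrm1 and Shfm1 (n = 18 genes). Over all members above 0, which include the chaperones and the immunoproteasome, it was 1.39 (n = 45 genes). It was 0.88 for CCT (n = 7 genes), 0.91 for eIF3 (n = 13 genes) and 1.36 for the COP9 signalosome (n = 9 genes), or 1.19 without Cops7b, the lower of its alternative forms of 1 subunit. The highest gene of a complex stood 5.71 times above the lowest in CCT, near the 5.75 times of the 19S particle with Shfm1, 7.89 times in eIF3 and 14.0 times in the COP9 signalosome. By median, eIF3 at 59.9 FPKM and CCT at 51.4 FPKM lay between the 20S core and the 19S particle, and the COP9 signalosome lay at 14.9 FPKM, 2.56 times below the 19S particle. The genes of a complex are not replicates, and these spreads were not tested against each other.

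**Figure D4:**
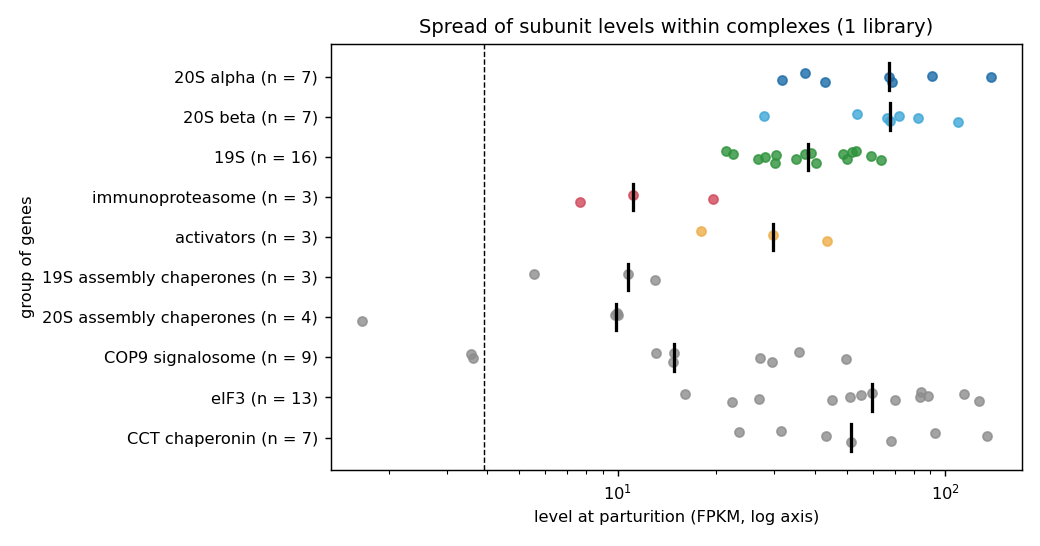
Levels in FPKM (log axis) of the single genes (points) and their median (vertical bar) for parts of the proteasome and for 3 other complexes, 1 library; the dashed line is the median of all named genes, and horizontal position alone carries a value. The 16 Psm genes of the 19S particle stay within 21.4 and 63.7 FPKM, whereas the 9 of the COP9 signalosome run from 3.56 to 49.8 FPKM.

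RefSeq promoters of the build GRCm38.p6, each from 250 bases before to 50 bases after the start of the gene, were at hand for 38 of the 46 members, with 41 promoters in all. They were searched on both strands for 11 short motifs. The ETS core CCGGAAG was the motif whose share differed most, in percentage points, from that of all promoters: it lay in 15 of the 41 promoters (36.6%), against 8.86% of all 32851 promoters and 18.6% of the 3899 promoters of named genes at 10 FPKM or more. The median GC content of the members' promoters was 59.0%, against 52.7% for all promoters and 60.7% for those of genes at 10 FPKM or more. Of 38 genes, 14 held the motif, among them Psma6 of the alpha ring, Psmc1, Psmc2 and Psmc6 of the ATPase ring, 6 further 19S genes, Psme4, Psmg1, Psmg3 and Psmc3ip. Members whose promoters at hand lacked it came from several parts. Among them were Psma1, Psma2, Psma3, Psma4 and Psma7 of the alpha ring, and Psmc4 and Psmd8 of the 19S particle. Psmb3, Psmb4, Psmb5, Psmb6, Psmb8, Psmb9 and Psmb10 lacked it as well. The motifs were chosen with the levels known, no test was run on their counts, and a match of letters does not show binding.

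The stretches below are shown because they carry this shared motif in the 4 most highly expressed members whose match and flanks lie wholly upstream of the start; the motif, or its reverse complement, is in capitals with 20 bases on either side, 5′ to 3′ on the strand of the gene. They lie at chr12:55398673-55398719 on the plus strand for Psma6, chr5:21785171-21785217 (plus) for Psmc2, chr14:14120964-14121010 (minus) for Psmd6 and chr12:100110154-100110200 (plus) for Psmc1. The matches begin 132, 84, 45 and 28 bases before the start.
Psma6: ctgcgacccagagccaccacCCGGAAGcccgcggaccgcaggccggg
Psmc2: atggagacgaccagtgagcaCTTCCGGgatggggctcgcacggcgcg
Psmd6: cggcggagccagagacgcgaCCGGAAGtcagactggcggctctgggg
Psmc1: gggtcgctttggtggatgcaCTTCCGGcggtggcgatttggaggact

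For the pair of Psmb5 and Psmb8, picked as an example, the promoters held different motifs. Whether either motif has a part in the levels of these genes was not tested. The antioxidant response element core TGACNNNGC, the site of NFE2L1 and NFE2L2, lay 47 bases before the start of Psmb5, at chr14:54618014-54618062 (minus strand) with its flanks. The gamma-activated site TTCNNNGAA, which STAT proteins bind, lay 97 bases before the start of Psmb8, at chr17:34198078-34198126 (plus strand). The capitals mark these matches.
Psmb5: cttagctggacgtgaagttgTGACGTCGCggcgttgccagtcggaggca
Psmb8: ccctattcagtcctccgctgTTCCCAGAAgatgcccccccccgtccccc

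Both motifs were about as frequent in all promoters, and in those of genes at 10 FPKM or more, as in those of the members. TGACNNNGC lay in 6 of 41 (14.6%), those of Psmb5, Psmb6, Psmc6, Psmd9, Psmd12 and Psme4, against 12.4% of all promoters and 15.8% of those of genes at 10 FPKM or more. In the same order, TTCNNNGAA lay in 3 of 41 (7.32%), against 8.30% and 6.62%. These 3 were the promoters of Psmb8, Psmd2 and Psmg1, so that it was in neither Psmb9 nor Psmb10. The interferon-stimulated response element core TTTCNNTTT lay in 6 of 41 (14.6%) against 10.6% and 8.10%, in Psme1 but in none of the 3 immunoproteasome promoters. CCAAT lay in 13 of 41 (31.7%) against 37.4% and 38.7%, and the GC box GGGCGG in 23 of 41 (56.1%) against 35.7% and 63.6%. TATAAA lay in 4 of 41 (9.76%), between 13.6% of all promoters and 6.95% of those of genes at 10 FPKM or more. The further ETS form CCGGAAA was in 5 of 41 (12.2%) against 3.54% and 6.39%. AAGATGGC was in 2 of 41 (4.88%) against 2.75% and 5.18%, GCATGCGC in 2 of 41 (4.88%) against 2.71% and 5.57%, and GAANNTTC in 3 of 41 (7.32%) against 7.86% and 5.80%. Motifs can overlap one another, and these letters were not set against the STAT5A or H3K4me3 data of the series, which are in another build.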

How the data were processed

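RNA of mammary tissue at parturition was measured by poly(A) RNA-seq in 1 library. The authors' deposited table gives FPKM per locus of a transcript assembly. CASAVA, TopHat and the build mm9 are named in the submitters' processing notes. No source used here names the tool that computed FPKM. Of 30305 loci, 21958 carried 1 symbol and were used. The 117 loci with several symbols, none of them naming a member, and the 8230 without a symbol were left out. A gene took its highest locus, which mattered for 3 of 46 members. No minimum level was applied.

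Levels were summarised as medians, ranges, counts at or above 10 and 50 FPKM, and log2 ratios with a pseudocount of 1 FPKM (pandas 2.3.3, Python 3.11.15). The collapse to genes was tested on simulated data. All 46 members matched the GRCm38.p6 gene table, used for names and gene order. Members, lists and motifs were chosen with earlier results of these data known. Named are every member, the measured genes of the partner and MHC class I lists, and up to about 3 genes of other lists; a few of these genes are not reported here. The STAT5A and H3K4me3 lists were not used, since no mm9 gene positions were at hand. Alternatives were the sum over loci, genes with 1 locus, loci with several symbols, a minimum of 1 FPKM and a pseudocount of 0.1.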

Additional observations from a re-analysis of the deposited data

How the results depend on the processing

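No alternative changed the order of the medians of the 20S beta genes, 20S alpha genes, 19S particle, activators and immunoproteasome, or the direction of the 3 pair ratios. Of 38 recomputed values, 28 were the same to 3 significant digits. With the sum over loci the median of the activators was 30.7 FPKM. With only genes of 1 locus it was 30.8 FPKM (2 genes), that of the 19S particle 37.2 FPKM (15 genes) and that of all members 35.1 FPKM (43 genes). The last was also 35.1 FPKM with a minimum of 1 FPKM, which removes Psma8, and 36.2 FPKM without Psma8 and Psmc3ip. With Adrm1 and Shfm1 the median of the 19S particle was 39.6 FPKM (18 genes). These last 2 settings were chosen after seeing the data. With a pseudocount of 0.1 FPKM the log2 ratios were -1.89 for Psmb8 to Psmb5, -3.41 for Psmb9 to Psmb6 and -1.32 for Psmb10 to Psmb7. With 1 library of unknown depth, no value has an error, and low levels such as that of Psmg1 have unknown precision. No paired analysis was possible because only 1 library was used.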

Other observations

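Upstream of the proteasome, 2 enzyme families were looked at after the values above were seen. Ubiquitin-conjugating enzymes, taken as the 32 named genes whose symbol starts with Ube2 and a letter, had a median of 15.5 FPKM. Ube2d3 at 64.3 FPKM, Ube2n at 42.6 and Ube2l3 at 41.7 led them, and Ube2j2 was listed at 0. Of these 32 genes 20 reached 10 FPKM, where 27.9% of all named genes did. Only 1 reached 50 FPKM, where 5.81% of all named genes did. The 40 genes whose symbol is Usp and a number only, ubiquitin-specific proteases, had a median of 6.12 FPKM by highest locus. By that measure none exceeded 22.7 FPKM, the level of Usp5, which disassembles free ubiquitin chains. Summed over its 2 loci, Usp5 stood at 29.4 FPKM. Usp14, which docks on the 19S particle, stood at 7.49 FPKM, near the median of that family.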
